A study of Mus musculus with 6 samples.

Results

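The 8 genes described here belong to cholesterol synthesis and its control: HMGCS1, SQLE, LSS, IDI1, FDFT1, FDPS, INSIG1 and SREBF2, written in capitals as the probe rows name them. They were looked up by gene name among the rows of an Illumina mouse expression array, and every probe of a gene was kept apart. Of the 8 genes, 6 were found, in 14 of 45281 probe rows. No row carried the name HMGCS1 or FDFT1, and these 2 genes were not analysed here.

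C2C12 myoblasts, cells of a mouse muscle line, fuse to multinucleated myotubes when the serum in their medium is reduced. In the Scramble group the myoblasts received 60 nM of a scramble siRNA, and in the siDJ-1 group 60 nM of an siRNA against *Dj1* (gene symbol *Park7*). With a single siRNA, effects of less *Dj1* and other effects of that siRNA cannot be told apart. In both groups differentiation began 48 h after transfection and lasted 96 h, and RNA of the myotubes was hybridized to 3 arrays per group. The labels number the replicates without saying whether they were separate cultures, so the p-values measure only the spread between these arrays, which may be technical. An array's number of probes with a detection p-value under 0.05 lay between 16985 and 18857, and each Scramble array had fewer than any siDJ-1 array. The bead-to-bead standard error had a median of 11.3, 8.30 and 8.66 intensity units in Scramble and 7.17, 6.36 and 5.88 in siDJ-1 arrays. The part of these differences in the results was not tested, and precision is limited throughout by how few arrays there are.

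The targeted gene was read first. The deposited intensity of the *Park7* probe (ILMN_2728754) was 12019.5, 10900.4 and 12251 in Scramble and 5935, 6585.5 and 4234 in siDJ-1 myotubes. All siDJ-1 arrays were below all Scramble arrays, as the labels require. After background correction and normalization the siDJ-1 signal was 44.7% of the Scramble signal (95% confidence interval 35.7 to 55.9%, limma adjusted p = 0.00344).

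Cells build cholesterol from acetyl-CoA by way of mevalonate and isoprenoid units, which are joined to squalene, closed to a ring and trimmed to cholesterol. The transcription factor SREBP-2, the product of SREBF2, switches on the enzymes of this path and genes for the uptake of cholesterol, and the INSIG proteins hold it back in the endoplasmic reticulum when sterols are plentiful. In muscle, cholesterol is a part of the plasma membrane and of the tubules that carry excitation into the fibre.

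RefSeq promoter windows (build GRCm38.p6, 250 bases before to 50 after the start of the gene) were held for 5 of the 8 members, HMGCS1, IDI1, LSS, INSIG1 and SREBF2. They were searched on both strands for the sterol regulatory element as TCACNCCAC and, looser, as TCACNCCA, for the NF-Y box CCAAT and for the E-box CACGTG. The looser element is contained in the stricter one. Of all 32851 windows, 1.24% held TCACNCCAC, 4.36% TCACNCCA, 37.4% CCAAT and 7.15% CACGTG. The 4 stretches below are shown because they belong to measured members and hold every match found before the start of those genes, in capitals. All 4 genes lie on the plus strand, at chr13:8885541-8885605 for IDI1, chr10:76531523-76531567 for LSS, chr5:28071176-28071336 for INSIG1 and chr15:82147087-82147158 for SREBF2.
IDI1: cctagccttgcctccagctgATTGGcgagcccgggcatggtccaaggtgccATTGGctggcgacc
LSS: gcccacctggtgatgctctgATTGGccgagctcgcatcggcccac
INSIG1: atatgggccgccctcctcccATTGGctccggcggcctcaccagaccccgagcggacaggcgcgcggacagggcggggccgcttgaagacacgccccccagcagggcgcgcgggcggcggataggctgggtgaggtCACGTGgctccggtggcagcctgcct
SREBF2: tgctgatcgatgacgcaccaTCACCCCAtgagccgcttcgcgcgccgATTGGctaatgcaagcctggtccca

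The stretches were cut around their matches, so matches are counted over the windows. Each of the 4 windows held the NF-Y box, against 37.4% of all windows, with 2 matches in IDI1 and 1 in each of the other 3. The box reads as ATTGG because it lies on the other strand. SREBF2 held the looser sterol element 162 bases before the start and INSIG1 the E-box 101 bases before it. The window of HMGCS1 held the stricter element 137 bases before the start, 3 NF-Y boxes before the start and 1 after it. A match describes the letters of the window and is not a measured binding site.

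Of the 6 measured genes, SQLE was the only 1 to pass the test, and it was lower after *Dj1* knockdown. Of the 14 member probes, 11 had a detection p-value under 0.05 on at least 3 arrays and were tested. At an adjusted p under 0.05 (limma, over 17890 tested probes) 2 of these 11 probes were lower and 0 higher, and 2 also passed at an unadjusted p under 0.05 and with the methods' t-test after adjustment. Across the array 30.1% of the tested probes passed this threshold, 13.6% lower and 16.5% higher, so 2 of 11 (18.2%) is near or below the background and is not a result about the members as a group. The groups of arrays did not overlap for the same 2 member probes, against 48.5% of all tested probes. Negative log2 fold changes were found for 9 of the 11 probes (6 without siDJ-1 replicate 2) and for 45.8% of all tested probes, and the median was -0.26 over the members and 0.05 over all tested probes. The members' median was -0.09 without background correction, and it was -0.41 without Scramble replicate 1, -0.13 without Scramble replicate 2 and -0.11 without siDJ-1 replicate 2. In RNA of whole cultures a lower signal from fewer cells of a type and from less RNA per cell cannot be told apart.

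**Figure D1:**
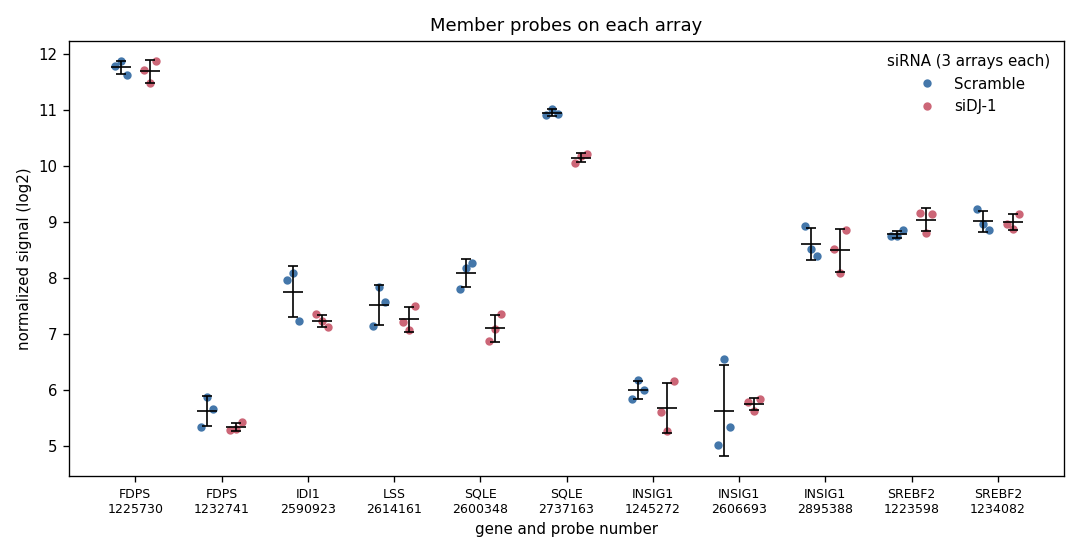
Normalized log2 signal of the 11 tested member probes on each array, with the gene and probe number on the horizontal axis; points are arrays, bars are the mean and SD of 3 arrays. The groups lie apart for the 2 SQLE probes and overlap for the other 9.

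The mevalonate steps begin with HMGCS1, which makes the precursor of mevalonate and was not analysed here. IDI1, isopentenyl-diphosphate isomerase, interconverts the isoprenoid building blocks. Its probe (ILMN_2590923) read 400.2, 427 and 273 in Scramble and 295, 299 and 246 in siDJ-1 myotubes. Scramble replicates 1 and 2 were above every siDJ-1 array, while Scramble replicate 3 lay among them. The estimate was a log2 fold change of -0.52 (standard error 0.23, 95% confidence interval -1.07 to 0.02, limma adjusted p = 0.127). Normalized signals spread more widely in Scramble (SD 0.46, n = 3) than in siDJ-1 myotubes (SD 0.11, n = 3). Without Scramble replicate 3 the log2 fold change was -0.78 and passed the threshold (limma adjusted p = 0.0138), and over all 14 alternative settings the adjusted p ran from 0.0138 to 0.291. The log2 fold change was -0.31 without background correction.

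FDPS, farnesyl diphosphate synthase, makes the chain from which squalene and several non-sterol products branch. Its bright probe (ILMN_1225730) read 3648, 3938 and 3178 in Scramble and 3538.5, 3345 and 3509 in siDJ-1 myotubes. The siDJ-1 intensities lay inside the range of the Scramble intensities, and the normalized groups overlapped. This gave a log2 fold change of -0.07 (95% confidence interval -0.39 to 0.25, limma adjusted p = 0.725), whose sign changed under 3 of 14 alternatives.

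The other FDPS probe (ILMN_1232741) was close to background, with 176, 201 and 176 in Scramble and 169, 175 and 162.5 in siDJ-1 myotubes. It was detected on 2 Scramble arrays and 1 siDJ-1 array, and the normalized groups overlapped. Its log2 fold change was -0.29 (95% confidence interval -0.64 to 0.07, limma adjusted p = 0.188). Without Scramble replicate 1 it passed the threshold at -0.44 (limma adjusted p = 0.0381), within a range of adjusted p from 0.0381 to 0.565 over the 10 alternatives that tested it, and the log2 fold change was -0.09 without background correction.

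At the squalene steps, FDFT1, which joins farnesyl units to squalene, was not analysed here. SQLE, squalene epoxidase, adds the oxygen to squalene that precedes ring closure and is a rate-limiting enzyme of the path. On its brighter probe (ILMN_2737163) the deposited intensity was 2085, 2233 and 2005 in Scramble and 1199, 1446 and 1159 in siDJ-1 myotubes. The highest siDJ-1 array was well below the lowest Scramble array. Normalized log2 signals were 10.96 ± 0.06 (SD, n = 3) in Scramble and 10.15 ± 0.09 (SD, n = 3) in siDJ-1 myotubes. SQLE thus had a log2 fold change of -0.80 on this probe (standard error 0.10, limma adjusted p = 0.00365), to 57.3% of Scramble (95% confidence interval 48.8 to 67.4%).

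The dimmer SQLE probe (ILMN_2600348) had intensities of 372, 448 and 433 in Scramble and 251, 283 and 265 in siDJ-1 myotubes. Here too all siDJ-1 arrays lay below all Scramble arrays. It had a log2 fold change of -0.98 (standard error 0.18, limma adjusted p = 0.00943), to 50.6% of Scramble (95% confidence interval 37.8 to 67.6%). For either probe a two-sided exact permutation test over the arrays gave p = 0.1, which is as small as p can be with groups of 3. The bead-to-bead standard error was 2.77 to 5.40% of the signal on the brighter probe and 3.01 to 6.30% on the dimmer one, with 29 to 51 and 28 to 35 beads per array. Both probes passed the threshold under all 14 alternatives, where the log2 fold change ran from -0.83 to -0.69 on the brighter probe and from -1.12 to -0.58 on the dimmer one, the last value being that without background correction. The third SQLE probe (ILMN_2573600), annotated to another transcript record than these 2, was not detected on any array and gives no fold change.

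**Figure D2:**
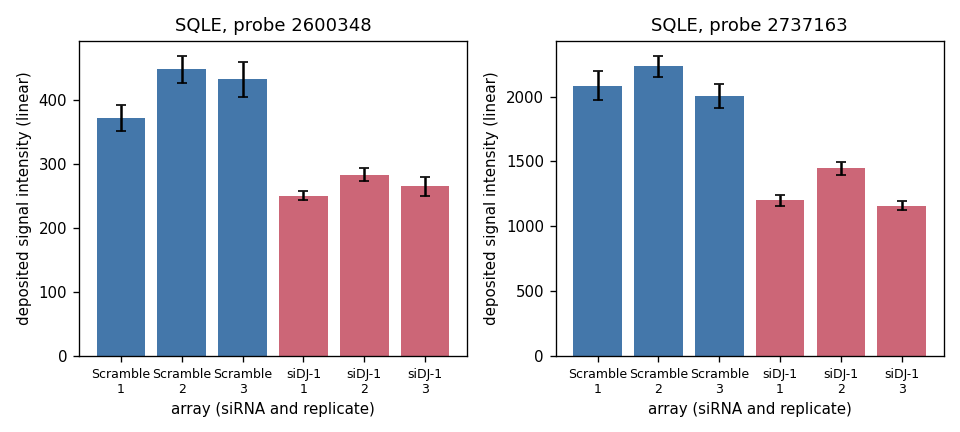
Deposited signal intensity of the 2 tested SQLE probes on each array (linear axis from 0); error bars are the standard error over beads. The siDJ-1 arrays read 1159 to 1446 against 2005 to 2233 on the brighter probe and 251 to 283 against 372 to 448 on the dimmer one.

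All 13 myotube marker probes were detected on every array, and 5 were lower and 0 higher (limma; 6 at an unadjusted p under 0.05), against 13.6% of all tested probes lower: *Tnnc2*, *Tnnt3*, *Des* and both *Actn2* probes. The other 8 did not pass, among them 1 *Myog* probe at 0.22. Over all 13 the median was -0.21, and in 8 every siDJ-1 array lay below every Scramble array. Of all 17890 tested probes 3931 had groups apart in this direction, and 48.5% had groups apart in either direction. The count called lower was 3 with the 75th percentile shift, where *Des* was lost (adjusted p = 0.0554), 8 with a trend in the prior variance and 2 without siDJ-1 replicate 3, where *Tnnt3* was lost. The *Actn2* calls held under only 5 and 10 of 14 alternatives, and both were lost without Scramble replicate 3, siDJ-1 replicate 1 or siDJ-1 replicate 3. The summed normalized signal of these markers was 260355, 257656 and 250347 in Scramble and 208934, 221286 and 189874 in siDJ-1 myotubes. Brightest were the probes of *Acta1* (log2 fold change -0.01) and *Mylpf* (-0.19 and -0.21, not called). Of 14 probes of dividing or undifferentiated myoblasts 8 were tested, with 2 lower, 0 higher (limma; 5 at an unadjusted p under 0.05, 3 of them with positive estimates) and a median of 0.22. The lower ones were 1 of 2 of *Ccnb1* (-0.57, lost without siDJ-1 replicate 1 or 3) and that of *Pcna* (-0.57). Positive estimates were found for 5 of the 8, against 9696 of all 17890 tested probes: *Cdk1* (0.30), *Mki67* (0.20, and 0.47 on a probe close to background) and *Top2a* (0.25 and 0.23). The groups lay apart in 4 of these 5 and in both lower probes, against the same 48.5%. Under 6 of 14 alternatives 1 or 2 probes of this list passed as higher. *Pax7* was detected on no array and *Myf5* on 2 of 6. This list summed to 5658, 5891 and 5444 in Scramble and 5108, 5779 and 5310 in siDJ-1 myotubes, with *Cdk1* brightest. The 6 adipocyte marker probes were detected in 2 of 36 readings and none was tested. The part of these marker levels in the lower SQLE signal was not tested.

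LSS, lanosterol synthase, closes squalene epoxide into the first sterol. The probe ILMN_2614161 read 283, 381 and 315 in Scramble and 281.0, 281.3 and 281.4 in siDJ-1 myotubes. The siDJ-1 intensities were nearly identical and just below the lowest Scramble array, but after normalization the groups overlapped. LSS had a log2 fold change of -0.26 (95% confidence interval -0.74 to 0.23, limma adjusted p = 0.379) and passed the threshold under 0 of 14 alternatives. It was -0.44 without Scramble replicate 1, -0.10 without Scramble replicate 2, -0.16 without siDJ-1 replicate 2 and -0.15 without background correction. Its other probe (ILMN_2444540) was not detected on any array.

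INSIG1 codes for a protein that retains the SREBP precursor and is itself a known SREBP target. Its brightest probe (ILMN_2895388) read 644.5, 528 and 458 in Scramble and 495, 432 and 522 in siDJ-1 myotubes. The groups overlapped, with Scramble replicate 3 among the siDJ-1 arrays. The estimate was -0.12 (95% confidence interval -0.66 to 0.43, limma adjusted p = 0.735), and over 14 alternatives it ran from -0.30 without siDJ-1 replicate 3 to 0.08 without siDJ-1 replicate 2.

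A dimmer INSIG1 probe (ILMN_1245272) read 197, 215 and 189 in Scramble and 180.3, 174 and 188 in siDJ-1 myotubes. It was detected on 3 Scramble and 2 siDJ-1 arrays, the normalized groups overlapped, and its log2 fold change was -0.32 (95% confidence interval -0.87 to 0.22, limma adjusted p = 0.326). It was -0.11 without siDJ-1 replicate 2, -0.56 without siDJ-1 replicate 3 (limma adjusted p = 0.0747, in a range from 0.0747 to 0.705) and -0.10 without background correction. The probe ILMN_2606693 read 159, 239 and 164 in Scramble and 187, 188 and 176 in siDJ-1 myotubes. Here Scramble replicate 2 stood above all siDJ-1 arrays and replicates 1 and 3 below them, and the probe was detected on 1 Scramble and 3 siDJ-1 arrays. Its log2 fold change was 0.12 (95% confidence interval -0.78 to 1.01, limma adjusted p = 0.842). Without Scramble replicate 2 no remaining Scramble array detected the probe, and no fold change is given for that alternative. Its sign changed under 3 of the others. The fourth INSIG1 probe (ILMN_2620965) was not detected on any array, and the 3 tested probes disagree in sign.

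SREBF2 codes for the transcription factor itself. The probe ILMN_1223598 read 586, 592 and 583 in Scramble and 701, 625 and 611 in siDJ-1 myotubes. Every siDJ-1 intensity was above every Scramble intensity before normalization, and the groups overlapped after it. Its estimate of 0.26 (95% confidence interval -0.05 to 0.56, limma adjusted p = 0.173) was positive under all 14 alternatives and passed the threshold under 0 of them.

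The other SREBF2 probe (ILMN_1234082) read 759.6, 661 and 584 in Scramble and 624, 652 and 612 in siDJ-1 myotubes. All siDJ-1 intensities lay within the Scramble range. Its log2 fold change was -0.02 (95% confidence interval -0.34 to 0.30, limma adjusted p = 0.928), and the sign changed under 4 of 14 alternatives. The probes of SREBF2 thus differ in the sign of their estimate, and neither passed the threshold.

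With the tested probes of each gene averaged, SQLE was again the only 1 of the 6 measured genes past the threshold (-0.89, limma adjusted p = 0.00427). IDI1 was at -0.52 (adjusted p = 0.118), LSS at -0.26 (adjusted p = 0.365) and FDPS at -0.18 (adjusted p = 0.296). Of the regulators, INSIG1 was at -0.11 (adjusted p = 0.718) and SREBF2 at 0.12 (adjusted p = 0.451). By role, 2 of 3 tested probes of the squalene steps were called, both of SQLE, 0 of 3 of the mevalonate steps and 0 of 5 of the regulators, where 30.1% of all tested probes were called. The difference between roles was not tested.

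**Figure D3:**
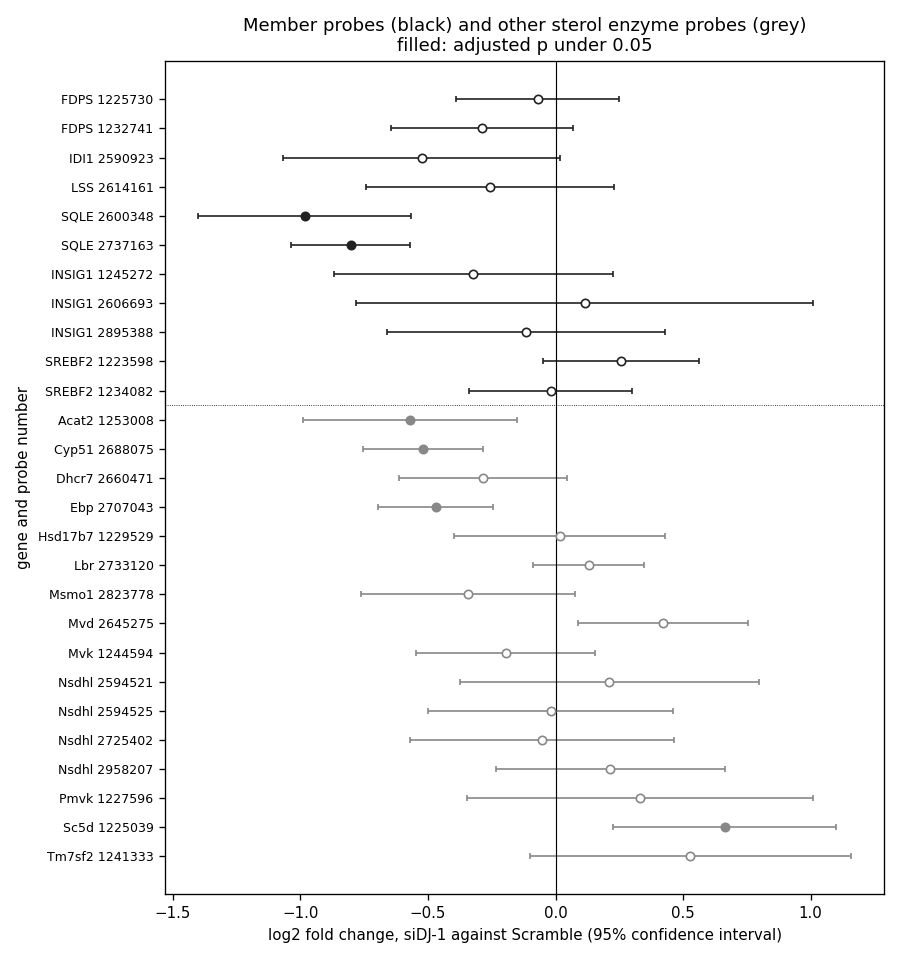
Log2 fold change of siDJ-1 against Scramble with its 95% confidence interval for the 11 tested member probes (black) and the 16 tested probes of 13 other sterol enzymes (grey); filled points have an adjusted p under 0.05. The 2 SQLE probes, at -0.98 and -0.80, are the only filled member points.

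The tested probes of the members were also standardised and averaged to 1 profile, which was 0.16, 0.81 and 0.01 in Scramble and -0.34, -0.95 and 0.31 in siDJ-1 myotubes. The value of siDJ-1 replicate 3 lay among those of the Scramble arrays. The 5 other tested probes most like this profile over the 6 arrays were those of TPRKB (Pearson's r 0.98), METT11D1 (0.98), CPE (0.98), LOC100047369 (0.96) and SAR1A (0.96). They were picked as the highest of all tested probes, share the arrays with the members and are given as a description. None of the 5 passed the threshold in limma, with log2 fold changes between -0.46 and -0.07.

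Of 13 other enzymes of sterol synthesis 16 probes were tested, and 3 were called lower and 1 higher, with a median log2 fold change of -0.002. The 4 calls are a lower share than the 30.1% over all tested probes and are not a result about the enzymes as a group. Downstream of SQLE and LSS, the lanosterol demethylase *Cyp51* (ILMN_2688075) read 609, 596 and 606 in Scramble and 463, 474 and 384 in siDJ-1 myotubes. Its groups did not overlap, and the signal fell to 69.7% of Scramble (limma adjusted p = 0.0112), a call that held under all 14 alternatives. The sterol isomerase *Ebp* fell to 72.2% (limma adjusted p = 0.0135), and its call was lost without siDJ-1 replicate 1 (adjusted p = 0.0554, in a range from 0.000468 to 0.0554). *Acat2*, at the entry of the path, was at 67.3% (limma adjusted p = 0.0495) and *Sc5d* at 158.3% (adjusted p = 0.0365), a log2 fold change of 0.66 that was 0.31 without background correction. These 2 calls held under only 6 and 7 of 14 alternatives, and each was lost when any siDJ-1 array was left out. *Mvk*, *Pmvk*, *Mvd*, *Tm7sf2*, *Lbr*, *Msmo1*, *Nsdhl*, *Hsd17b7* and *Dhcr7* had no called probe. The estimate for *Tm7sf2* (0.53) rests on a probe detected on only 1 Scramble array, close to background, and was 0.17 without background correction. The log2 fold changes of the others lay between -0.34 and 0.42. The highest, that of *Mvd*, was 0.24 without background correction. *Mvd* passed without Scramble replicate 1 and with a stricter detection filter (lowest limma adjusted p = 0.0263).

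Among the genes that act with INSIG1 and SREBF2 in SREBP control, 4 of 15 tested probes were higher and 0 lower (limma; 6 at an unadjusted p under 0.05), and the median was -0.04. This share of 26.7% is below the 30.1% of all tested probes called in either direction and above the 16.5% called higher. It was not tested against either, and the count of 4 was 2 under 6 of 14 alternatives. Both tested probes of *Insig2*, the relative of INSIG1, rose. The probe ILMN_1216822 read 2844, 2113 and 2626 in Scramble and 4845, 4958 and 4673 in siDJ-1 myotubes, an increase of 0.97 (limma adjusted p = 0.00633), and ILMN_2690256 gave 0.64 (limma adjusted p = 0.0111), both under all 14 alternatives. The difference between *Insig2* and INSIG1 was not tested. The other 2 called probes were 2 of 3 of *Erlin2*, at 0.78 (0.32 without background correction) and 0.47 (limma adjusted p = 0.0375 and 0.0340). The third, close to background and detected on 1 Scramble array, was at 0.37 (limma adjusted p = 0.278). Both *Erlin2* calls were lost without any 1 of Scramble replicates 2 and 3 and siDJ-1 replicates 1 and 3.

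Of a list of 8 genes of cholesterol uptake and transport, 6 had a tested probe, and *Scarb1* and *Mylip* had none. The list had 5 of 10 tested probes higher and 0 lower (limma, and 5 at an unadjusted p under 0.05), with a median log2 fold change of 0.32. This and the counts that follow stand against 16.5% of all tested probes higher and 13.6% lower, and no list was tested against them. The 5 became 2 without siDJ-1 replicate 3, 3 without Scramble replicate 2, Scramble replicate 3 or siDJ-1 replicate 1, and 3 without the filter, with the methods' t-test and with the replicate block. These were 2 of 3 tested *Npc1* probes (0.92 and 0.60, the third at -0.14), *Osbp* (0.70), *Stard4* (0.48) and 1 of 2 probes of *Lipa* (0.38). The calls of *Osbp* and the first *Npc1* probe held under all 14 alternatives, the second *Npc1* call was lost without siDJ-1 replicate 3, and those of *Stard4* and *Lipa* held under 6. Among 6 genes of efflux and storage *Abca1* and *Nr1h3* had no tested probe, and the *Abcg1* probe was detected on only 1 Scramble array. In this list 2 of 6 tested probes were higher and 0 lower (limma, and 3 at an unadjusted p under 0.05), that of *Nceh1* (0.78) and 1 of 2 of *Soat1* (0.55, the other at 0.40), and the list's median was 0.36. The non-sterol branches of the path had 2 probes higher (1 of 2 of *Trit1* at 0.74, the other, close to background, at -0.14, and *Fntb* at 0.37) and 2 lower (*Pdss1* at -1.03, *Dolk* at -0.38) of 12, with a median of -0.07. The list named fatty acid synthesis also holds genes of elongation (*Elovl5*, *Elovl6*), desaturation (*Fads1*) and glycerolipid synthesis (*Lpin1*). It had 5 higher (*Lpin1* with 2 probes at 0.94 and 0.88, *Acss2*, *Elovl5*, *Fads1*) and 2 lower (*Acly* and 1 of 2 of *Elovl6*, the other, close to background, at 0.21) of 14, with a median of 0.12. The probe of the synthase *Fasn* was detected on 1 Scramble array and 0 siDJ-1 arrays and was not tested. Without background correction and with the 75th percentile shift, the values were 0.38 for *Osbp*, 0.31 for *Stard4*, -0.53 for *Pdss1* and 0.48 and 0.51 for *Lpin1*. The calls of *Fntb*, *Dolk*, *Elovl5*, *Fads1*, *Elovl6* and *Acly* were each lost without siDJ-1 replicate 1 and without siDJ-1 replicate 3.

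**Figure D4:**
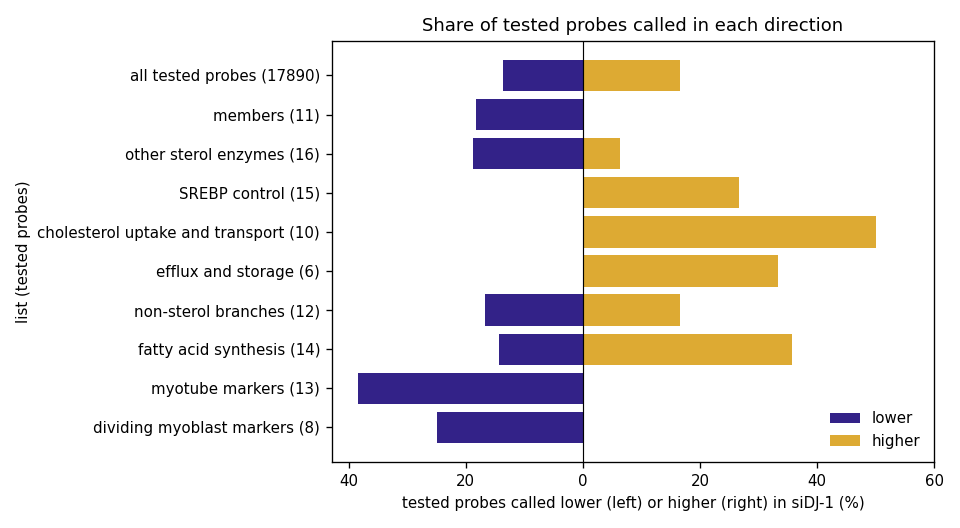
Share of the tested probes of each list called lower (left) and higher (right) in siDJ-1 at an adjusted p under 0.05, with the number of tested probes in brackets. The members have 2 of 11 lower and 0 higher, where all tested probes have 13.6% lower and 16.5% higher.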

How the data were processed

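The authors quantified the BeadChip in GenomeStudio and deposited for each probe and array an intensity, its bead-to-bead standard error, the bead number and a detection p-value, per the file headers with no normalization. Columns were matched to samples by title. In R 4.3.3 with limma 3.58.1 intensities were background-corrected (normexp, offset 16, background inferred from detection p-values), quantile normalized and set to log2. Probes detected (p under 0.05) on 3 or more arrays entered lmFit and eBayes, with p-values adjusted by Benjamini-Hochberg over all tested probes, threshold 0.05, keeping probes of a gene apart. The steps were tested on simulated data. Tables were made in Python 3.11.15. *Msmo1*, *Faf2*, *Nceh1*, *Lipa*, *Cdk1* and *Plin1* were found under older names and *Me1* by its Entrez number; *Acaca* was not analysed here. Some genes of the planned lists are not reported here and enter no list count. The members and lists were chosen with earlier results of these data known. Named are *Park7*, all member probes, 13 other sterol enzymes, up to 6 called genes of each other list and the 5 probes most like the members. Some listed genes that were not called or not tested are named as well. Alternatives covered background correction, normalization, filter, prior variance, the methods' t-test (the study's general test for its assays; for these arrays the authors named a moderated one), a replicate block, each array left out and the mean of a gene's probes.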

Additional observations from a re-analysis of the deposited data

How the results depend on the processing

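*Park7* and both tested SQLE probes kept their direction and passed the threshold under all 14 alternatives fitted across probes. Across the array 5387 probes were called, 3519 without the filter, where more probes share the adjustment, and 2444 to 5302 with single arrays left out (2444 without siDJ-1 replicate 1, 2612 without siDJ-1 replicate 3). Member probes called lower were 2 under every alternative fitted to all arrays and 2 to 3 with single arrays left out. With the mean of probes per gene the count was 1, since the SQLE probes become 1 gene. Member probes called higher were 0 to 1 with single arrays left out (1 without Scramble replicate 2, an INSIG1 probe that no remaining Scramble array detected) and 0 otherwise. Other sterol enzyme probes called lower, 3 in the report, were 2 without the filter, 2 with the methods' t-test and 1 to 3 with single arrays left out, and those called higher, 1 in the report, were 0 without the filter, 2 with the stricter filter, 0 with the methods' t-test and 0 to 2 with single arrays left out (2 without Scramble replicate 2, 1 of them detected on no remaining Scramble array); the cause was not tested. With the replicate number as a replicate block 4350 probes were called across the array, 2 member probes lower and 2 other sterol enzyme probes lower. Deviations of arrays with the same number correlated at r = 0.0537, 0.0474 and 0.0199, none over 0.1, and each array correlated best with its own number, a hint from the data and not from the design. Signal close to background limits FDPS ILMN_1232741 and INSIG1 ILMN_1245272 and ILMN_2606693, which were not detected on every array.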
